A study of Mus musculus with 8 samples.

Results

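Il1rapl1, Cntnap4, Edil3, Nyap2, Adcyap1r1 and Adam19, genes of cell adhesion, extracellular matrix and receptor signalling, were examined in sorted cochlear hair cells of mice lacking Ndp. They are 6 of the 25343 genes in the deposited table. They were selected on the genotype contrast itself: low-count genes whose normalized counts in the 4 knockout libraries all lay above those in the 4 wild-type libraries. The genotype differences given for them are therefore descriptions. Where the calls of a tool are given for them, nothing is read from those calls. Ndp encodes norrin, a secreted ligand that signals through the receptor Fzd4. The wild-type and the Ndp knockout mice shared a mixed C57BL/6 and 129 background and an Atoh1-GFP reporter, which marks hair cells, and were taken at postnatal days 4 to 6. Each genotype had 4 libraries of full-length cDNA. Each library came from a pool of 12 to 20 sensory epithelia sorted for the reporter, so no library stands for a single animal, and the labels do not say how pools relate to litters. Libraries are numbered 1 to 4 within a genotype in accession order, and the numbers pair nothing, although wild-type library 2 and knockout library 2 carry the same date in their titles. Any p-value therefore measures the spread among these pools alone, and that spread may be technical.

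Il1rapl1, Cntnap4, Nyap2 and Adcyap1r1 encode proteins better known from neurons than from hair cells. Il1rapl1 encodes a synaptic adhesion receptor of the interleukin-1 receptor family, which binds receptor tyrosine phosphatases across the synapse. Cntnap4 encodes a transmembrane protein of the neurexin superfamily, related to the contactin-associated proteins of axons. Edil3 encodes a secreted matrix protein with an RGD motif that binds integrins. Nyap2 encodes a phosphoprotein that links Fyn to PI3-kinase and the WAVE1 complex in neurons. Adcyap1r1 encodes the receptor for the neuropeptide PACAP, which raises cAMP through a stimulatory G protein, and Adam19 encodes a membrane metalloprotease known to cleave neuregulin.

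Promoter sequences were compared because the 6 genes were higher in the same 4 libraries. RefSeq windows of the 250 bases before the transcription start (GRCm38.p6) were matched for 4 of the 6 genes, while Cntnap4 and Edil3 had no entry. They are given in the direction of transcription with each E-box, CANNTG, a motif bound by basic helix-loop-helix factors such as Atoh1, in capitals. For Adam19 the window shown is that of the start nearest to the start of the gene in the deposited table, 8 bases from it. The RefSeq start of Il1rapl1 lay 303 bases from the end that the deposited table gives it.
Nyap2, chr1:81076700-81076949, plus strand: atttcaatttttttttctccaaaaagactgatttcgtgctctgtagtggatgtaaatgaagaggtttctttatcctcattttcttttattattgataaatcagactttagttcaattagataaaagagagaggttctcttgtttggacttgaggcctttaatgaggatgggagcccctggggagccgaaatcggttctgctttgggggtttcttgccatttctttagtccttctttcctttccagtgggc
Adcyap1r1, chr6:55451728-55451977, plus strand: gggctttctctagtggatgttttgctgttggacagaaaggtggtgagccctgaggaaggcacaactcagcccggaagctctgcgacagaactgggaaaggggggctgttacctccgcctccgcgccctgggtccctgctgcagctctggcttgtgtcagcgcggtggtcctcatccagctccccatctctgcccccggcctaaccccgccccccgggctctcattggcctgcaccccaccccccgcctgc
Adam19, chr11:46055734-46055983, plus strand: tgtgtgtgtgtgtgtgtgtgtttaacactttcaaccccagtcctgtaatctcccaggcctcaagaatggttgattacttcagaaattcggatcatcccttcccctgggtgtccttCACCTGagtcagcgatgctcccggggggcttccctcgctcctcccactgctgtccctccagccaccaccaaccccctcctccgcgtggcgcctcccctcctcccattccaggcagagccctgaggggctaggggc
Il1rapl1, chrX:88115949-88116198, minus strand: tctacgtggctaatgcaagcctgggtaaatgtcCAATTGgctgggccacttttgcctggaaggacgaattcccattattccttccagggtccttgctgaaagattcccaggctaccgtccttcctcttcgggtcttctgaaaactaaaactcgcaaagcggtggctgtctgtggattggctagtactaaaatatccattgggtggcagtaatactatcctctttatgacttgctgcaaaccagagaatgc
The windows had little in common. Their GC content was 38.8% for Nyap2, 65.6% for Adcyap1r1, 60.0% for Adam19 and 47.6% for Il1rapl1, against a median of 52.4% over 32817 windows of the same length. Their CpG dinucleotides numbered 3, 11, 7 and 6 in the same order, against a median of 6. The E-box was found on either strand in 2 of the 4 windows, those of Adam19 and Il1rapl1, and in 66.2% of all windows. The GC box GGGCGG was found in 1 window, that of Adcyap1r1, and in 32.7% of all windows. The TCF/LEF core TCAAAG (13.8% of all windows), the cAMP response element TGACGTCA (1.55%), the NBRE AAAGGTCA (1.34%) and TATAAA (12.4%) were found in 0 of the 4 on either strand. RefSeq lists 2 further starts of Adam19, at 46054502 and 46127904, whose windows held 4 and 5 E-boxes, the second with 1 TCF/LEF core, and are not shown. A match describes these letters only.

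Whole reads recovered from the deposited values numbered 35077950 to 48329827 per library, and 3 reads, used here as the floor of detection, were worth 2.34 to 3.49 normalized counts. Ndp itself had 90.4 to 206 normalized counts in the wild type and 10.5 to 66.8 in the knockout, with no overlap. Hair cell transcripts were abundant in both genotypes, and the 20 hair cell markers summed to 492195 to 575449 normalized counts in the wild type and 512455 to 590049 in the knockout. The 6 genes lay far below such markers. For comparison, Pou4f3, a hair cell transcription factor, had 5961 ± 611 in the wild type and 5758 ± 325 in knockout libraries (SD, n = 4 per genotype). Calb1 weighed most in the hair cell sum, with a wild-type mean of 183686, and counts of single markers follow below. In such sorted pools a smaller number of cells with a transcript and less of it per cell cannot be told apart. Of all 25343 genes measured, 352, or 1.39%, had all 4 knockout values above all 4 wild-type values, the property by which the 6 were chosen.

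**Figure D1:**
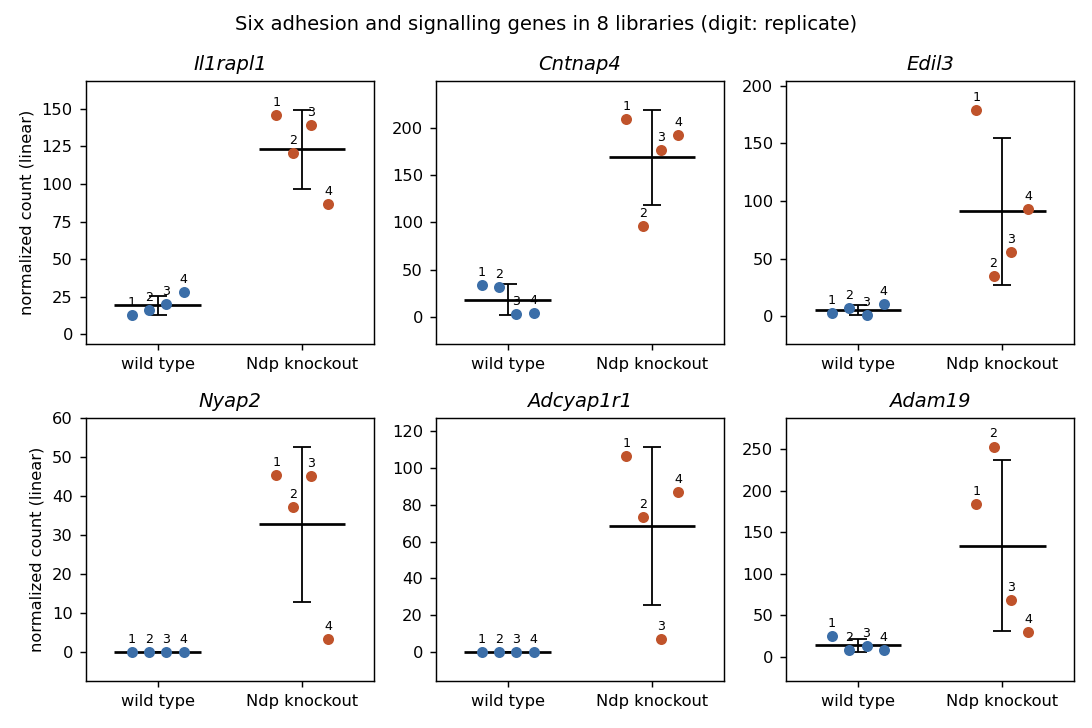
Normalized counts (linear axes, 1 panel per gene) of the 6 genes in the 4 wild-type (blue) and 4 knockout (orange) libraries, with the library number above each point, the mean as a long bar and the SD as whiskers. Nyap2 and Adcyap1r1 are at 0 in every wild-type library, and Adam19 has its lowest knockout value, 29.7, close to its highest wild-type value, 25.3.

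The adhesion receptor Il1rapl1 had the most even values within the knockout. Il1rapl1 (ENSMUSG00000052372, mm10 chromosome X, 86740870 to 88115645, minus strand) held 12.7, 16.4, 20.3 and 27.9 normalized counts in wild-type libraries 1 to 4 and 145, 121, 139 and 86.9 in knockout libraries 1 to 4. The groups did not overlap, and the lowest knockout library, 4, had 3.11 times the highest wild-type library, 4. The mean was 19.3 ± 6.51 in the wild type and 123 ± 26.3 in knockout libraries (SD, n = 4 per genotype), a ratio of 6.37. On the log2(normalized count + 1) scale the difference was 2.64 ± 0.41 (SE). Behind these values were 12 to 26 reads per wild-type library and 79 to 154 per knockout library. The coefficient of variation in the knockout was 21.4%, the smallest of the 6 genes.

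Il1rapl1 shares the X chromosome with the deleted gene, and its start lay 69.8 Mb from the end of Ndp. Knockout library 2 held 0.98 normalized counts of Xist, the X-inactivation transcript of female cells, against 412 to 918 in the other knockout libraries and 768 to 1982 in wild type. In that library Il1rapl1 had 121 normalized counts, inside the range of the other knockout libraries.

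The neurexin-family gene Cntnap4 had the highest mean level per length of the 6 genes in the knockout, but its range over libraries overlapped that of Adam19. Cntnap4 (ENSMUSG00000031772, chromosome 8, 112570043 to 112882717, plus strand) held 33.8, 31.9, 3.12 and 4.65 normalized counts in wild-type libraries 1 to 4 and 210, 96.1, 177 and 192 in knockout libraries 1 to 4. The wild-type libraries fell into a pair near 30 and a pair close to the floor, of 4 reads each, and no knockout library reached down to either pair. The mean was 18.4 ± 16.8 in the wild type and 169 ± 50.3 in knockout libraries (SD, n = 4 per genotype), a ratio of 9.19, and the log2 difference was 3.67 ± 0.73 (SE). The lowest knockout library, 2, had 2.84 times the highest wild-type library, 1. The wild-type and knockout libraries that share a title date had 31.9 and 96.1, a log2 difference of 1.56.

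The matrix gene Edil3 was near the floor in wild type. Edil3 (ENSMUSG00000034488, chromosome 13, 88821472 to 89323223, plus strand) held 3.17, 7.30, 0.78 and 10.5 normalized counts in wild-type libraries 1 to 4 and 179, 35.3, 55.9 and 93.5 in knockout libraries 1 to 4. The wild-type values rest on 3, 8, 1 and 9 reads, and the groups did not overlap. The mean was 5.43 ± 4.30 in the wild type and 91.0 ± 63.6 in knockout libraries (SD, n = 4 per genotype), a ratio of 16.8, and the log2 difference was 3.90 ± 0.75 (SE). Knockout library 1 stood above the other 3, and without it the knockout mean was 61.6, a move of 1.48 times and the largest such move for any of the 6 genes. Between the libraries that share a title date the log2 difference was 2.13.

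The signalling adaptor Nyap2 was not detected in wild type. Nyap2 (ENSMUSG00000054976, chromosome 1, 81076950 to 81341764, plus strand) held 0 reads in each of the 4 wild-type libraries and 45.3, 37.3, 45.1 and 3.30 normalized counts in knockout libraries 1 to 4. Knockout library 4 held 3 reads, which is the floor, against 38 to 50 in the other 3. The knockout mean of 32.8 ± 20.0 (SD, n = 4) was 45.7 times a wild-type floor of 0.717 normalized counts, which is 3 reads over the group. That floor covers counting error and not the spread among pools, so 45.7 is no strict lower bound. Nyap2 reached 10 normalized counts in only 3 libraries and so was below the minimum for the limma fit.

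The neuropeptide receptor gene Adcyap1r1 was likewise not detected in wild type. Adcyap1r1 (ENSMUSG00000029778, chromosome 6, 55451978 to 55501451, plus strand) held 0 reads in each of the 4 wild-type libraries and 106, 73.6, 7.22 and 86.9 normalized counts in knockout libraries 1 to 4. Knockout library 3 was low, with 8 reads against 75 or more in each of the others. The knockout mean of 68.5 ± 43.1 (SD, n = 4) was 95.6 times the same wild-type floor, again no strict lower bound. Without library 3 that mean was 89.0. Like Nyap2, Adcyap1r1 was below the minimum for the limma fit. Over all genes measured, 17, or 0.0671%, had no read in the wild type and reads in all 4 knockout libraries, and 13, or 0.0513%, had the reverse.

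The metalloprotease gene Adam19 had the largest coefficient of variation within the knockout, 77.3%, and lay just inside the selection limit. Adam19 (ENSMUSG00000011256, chromosome 11, 46055992 to 46147343, plus strand) held 25.3, 8.22, 12.5 and 8.14 normalized counts in wild-type libraries 1 to 4 and 183, 253, 67.7 and 29.7 in knockout libraries 1 to 4. The lowest knockout library, 4, exceeded the highest wild-type library, 1, by only 1.17 times, and the next library upward, knockout 3, was well clear. The mean was 13.5 ± 8.12 in the wild type and 133 ± 103 in knockout libraries (SD, n = 4 per genotype), a ratio of 9.86, and the log2 difference was 2.92 ± 0.70 (SE). Of the relatives and partners listed below, the one just outside the limit was Prkar1a, a regulatory subunit of protein kinase A. Its lowest knockout value of 17229 was 0.907 times its highest wild-type value of 18997. Prkar1a was not raised, with a log2 difference of -0.03 ± 0.10 (SE), and its ratio is near 1 because its values lie close together.

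**Figure D2:**
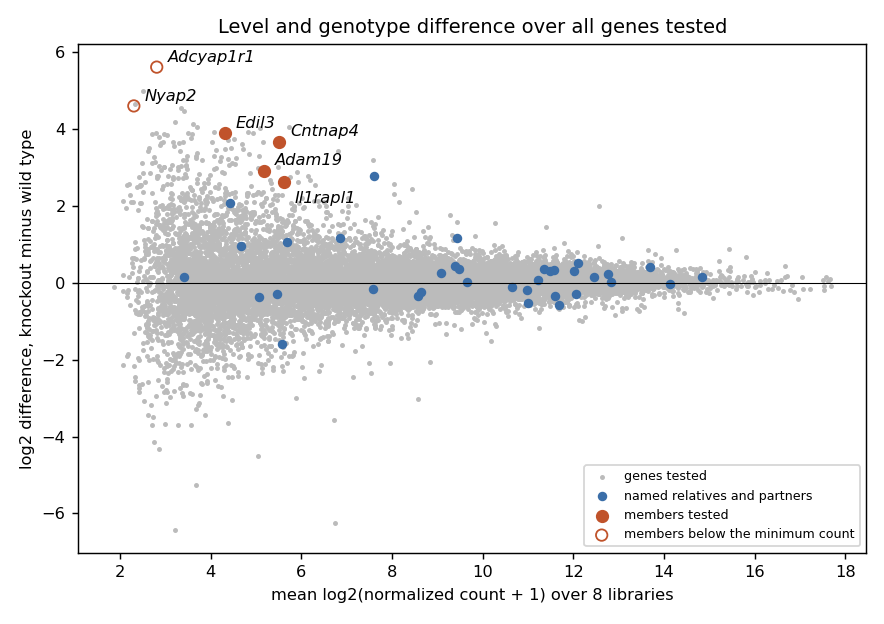
Log2 difference between knockout and wild type against the mean log2(normalized count + 1) over the 8 libraries for the 18203 genes tested (grey), the named relatives and partners (blue) and the 6 genes (orange, open where below the minimum count). The 6 genes lie at low mean levels, where the grey points spread widest, with differences of 2.64 to 5.62.

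The median of the 6 log2 differences was 3.79, against 0.02 over the 18203 genes tested. Those of Nyap2 and Adcyap1r1 are plain differences of means. Placing these genes at their multiples of the wild-type floor could not move the median, since they lie above it either way. Among 1879 genes tested whose mean log2 level lay between those of Edil3 and Il1rapl1, 4.32 to 5.61, the median difference was -0.04. In that range 40 genes, 2.13%, had every knockout value above every wild-type value, and 39 genes, 2.08%, had the reverse. The 4 selected genes in it are among the 40. Limma called 1 of 18203 genes at an adjusted p under 0.05, 0.00549%, and that gene was lower in the knockout. None of the 4 selected genes that limma tested was called. By the quasi-likelihood test of edgeR, run on recovered reads, 0 of 18174 genes were called, a share of 0%, and by DESeq2, run likewise, 35 of 25078, or 0.14%. In the authors' deposited table, a DESeq2 comparison, all 6 are among the 23 genes, 0.0917% of 25078, that were higher in the knockout at an adjusted p under 0.05. Their log2 fold changes in the authors' deposited table ran from 2.68 for Il1rapl1 to 8.59 for Adcyap1r1 before shrinkage and from 0.46 for Nyap2 to 1.55 for Il1rapl1 after it. Because these genes were chosen on this contrast, nothing is read from their counts against those shares.

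Levels of different genes were compared per kilobase of merged exons (GENCODE M21). In the knockout the order was Cntnap4 with 26.9 ± 8.01 normalized counts per kilobase, Adam19 with 18.8 ± 14.5, Il1rapl1 with 13.2 ± 2.81, Adcyap1r1 with 10.4 ± 6.52, Edil3 with 6.65 ± 4.65 and Nyap2 with 2.62 ± 1.60 (SD, n = 4 per genotype). The ranges over libraries of every pair of neighbours in this order overlapped, so the order of neighbours is not resolved. In wild type, by the same measure, Cntnap4 had 2.93 ± 2.67, Il1rapl1 2.07 ± 0.70, Adam19 1.90 ± 1.14 and Edil3 0.397 ± 0.31 (SD, n = 4 per genotype). Among the genes tested, the knockout level per kilobase of the 6 genes stood between the 1.66th percentile (Nyap2) and the 25.7th (Cntnap4), so all 6 were low-level transcripts in the knockout too.

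Within the knockout the 6 genes differed in which library was high and which was low. Library 1 held the highest value of 5 genes, and library 2 that of Adam19. The lowest value was in library 4 for Il1rapl1, Nyap2 and Adam19, in library 2 for Cntnap4 and Edil3, and in library 3 for Adcyap1r1. The highest knockout library had 1.67 times the lowest for Il1rapl1 and 2.18 times for Cntnap4. That ratio was 5.08 for Edil3, 8.52 for Adam19, 13.7 for Nyap2 and 14.8 for Adcyap1r1. The coefficient of variation over the knockout libraries was 29.8% for Cntnap4, 61.0% for Nyap2, 62.8% for Adcyap1r1, 69.9% for Edil3 and 77.3% for Adam19. Adam19 and Edil3 were ordered differently: library 2 held the highest knockout value of Adam19 and the lowest of Edil3.

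**Figure D3:**
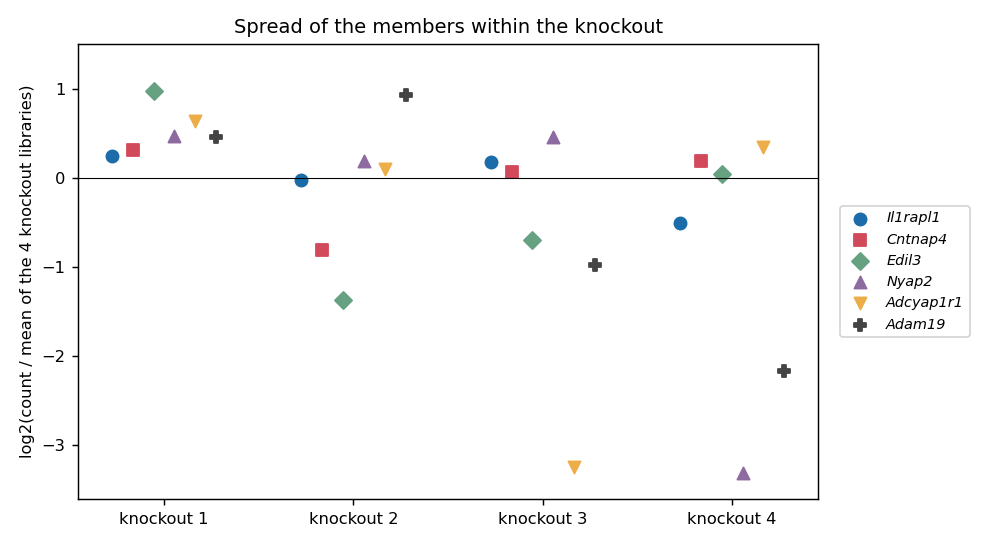
Normalized count of each of the 6 genes in each knockout library, as log2 of the ratio to that gene's mean over the 4 knockout libraries (0 is the mean). Nyap2 in library 4 and Adcyap1r1 in library 3 lie more than 3 log2 units below their means, while every value of Il1rapl1 lies close to 0.

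The genes whose profile over the 8 libraries was most like each of the 6 were taken by the root mean square difference of log2 values centred on each gene's own mean. For Il1rapl1 they were Klhdc8a (0.63) and Atp10b (0.65). For Cntnap4 they were Mcemp1 (0.76) and Tlr4 (0.81), a receptor for lipopolysaccharide. For Edil3 they were Rims1 (0.77), which encodes a scaffold of the presynaptic active zone, and Fam240b (0.87). For Nyap2 they were Adam19 (1.14) and Vav1 (1.27), a guanine nucleotide exchange factor of blood cells. For Adcyap1r1 they were Vav1 (0.73) and the kinase gene Map3k8 (1.40), and for Adam19 they were Iqch (0.94) and Igsf6 (0.95). Since all 6 were chosen for a step between the genotypes, any gene with a large step resembles them by this measure.

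Of the 6 genes, which lie on 6 different chromosomes, 4 have a genomic span of at least 250 kb. Il1rapl1 spans 1375 kb, longer than 99.9% of the protein-coding genes tested, Edil3 502 kb, Cntnap4 313 kb, Nyap2 265 kb, Adam19 91.4 kb and Adcyap1r1 49.5 kb, against a median of 24.7 kb. Of the protein-coding genes tested that span at least 250 kb, a limit chosen after the values were seen, 12 of 644, 1.86%, had all knockout values above all wild-type values. Il1rapl1, Edil3 and Cntnap4 are 3 of the 12 by selection, and without them the share was 9 of 641, 1.40%. It was 215 of 14051, 1.53%, for shorter genes, and the median log2 differences were 0.04 and 0.03. Their longest coding transcripts in GENCODE M21 have 11 exons for Il1rapl1 and Edil3, 24 for Cntnap4, 23 for Adam19, 16 for Adcyap1r1 and 7 for Nyap2. The libraries were made without strand information. Antisense models overlap exons of Cntnap4 (Gm45904) and of Adam19 (Gm16033 and Gm16034), so reads of these pairs cannot be told apart.

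The nearest tested genes on either side of the 6 genes had no common direction. Of 12 such neighbours 6 had positive and 6 had negative log2 differences, from -1.53 for Ghrhr beside Adcyap1r1 to 1.39 for Neurod6 on its other side, with a median of -0.04. None of the 12 had all knockout values above all wild-type values, a property of 1.39% of all genes, so nothing is read from this count. Limma gave an unadjusted p under 0.05 for 2 of the 12, against 5.57% of all genes tested. They were Gk beside Il1rapl1, higher by 1.07 ± 0.42 (SE), and Vcan, the proteoglycan gene beside Edil3, at -1.25 ± 0.38 (SE). Both had an adjusted p of 0.895 in limma. Nipal4 starts 0.812 kb beyond the end of Adam19 and had a log2 difference of -0.17 ± 0.53 (SE). The others were Pola1 (-0.28), Terf2ip (0.14), Mon1b (0.03), Gm47649 (-0.40), Dock10 (0.55), Irs1 (0.53) and Thg1l (-0.11).

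Relatives, ligands, receptors and partners of the 6 genes were not picked for how they moved, but were listed with earlier results of these data known. Of 146 listed genes 140 were in the table and 128 were tested. Their log2 differences were positive for 79 and negative for 49, with a median of 0.05, against 0.02 over all genes tested. Limma, edgeR and DESeq2 each called 0 of them. At an unadjusted p under 0.05 limma listed 2 higher and 2 lower of the 128, edgeR listed 3 and DESeq2 8. Over all genes tested, limma listed 1014 at that p, or 5.57%, edgeR 827, or 4.55%, and DESeq2 1526, or 6.09%. In none of the 140 did all knockout values lie above all wild-type values, against 1.39% of the table.

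For Il1rapl1 the closest relative tested was Il1rap, the accessory chain of the interleukin-1 receptor, which also serves as a synaptic adhesion protein in neurons. Il1rap had 185, 42.9, 54.6 and 80.2 normalized counts in wild-type libraries 1 to 4 and 170, 137, 255 and 150 in knockout libraries 1 to 4. Wild-type library 1 lay above 3 of the 4 knockout libraries, so the groups overlapped, and the log2 difference was 1.16 ± 0.45 (SE), for which limma gave an adjusted p of 0.895. Ptprd, the phosphatase receptor that binds Il1rapl1 across the synapse, had 539 ± 257 normalized counts in the wild type and 603 ± 134 in knockout libraries (SD, n = 4 per genotype). Its relative Ptprs had a log2 difference of 0.51 ± 0.36 (SE). Il1r1, the signalling interleukin-1 receptor, had a difference of 2.08 ± 1.15 (SE), with 0 to 96.8 normalized counts over the wild-type libraries. Of the 21 genes tested in this list 16 were positive and 5 negative, with a median of 0.10.

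For Cntnap4, the other contactin-associated proteins showed no shared direction. Cntnap2 had 218 ± 91.9 normalized counts in the wild type and 180 ± 9.61 in knockout libraries (SD, n = 4 per genotype), and Cntnap1 had 0 to 13.3 over the 8 libraries, with too few reads for the fit. Cntn1, an axonal contactin, had a log2 difference of -0.52 ± 0.52 (SE). Nrxn3, which encodes a presynaptic receptor, had a difference of 0.24 ± 0.27 (SE). The smallest p-values of the list were those of Nlgn1, a postsynaptic neuroligin, at 1.06 ± 0.50, and of the adaptor gene Apba1 at 0.40 ± 0.21 (SE), both with unadjusted p above 0.05 in limma. Of 22 genes tested, 12 were positive and 10 negative, with a median of 0.03.

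For Edil3, the closest relative Mfge8, a secreted integrin ligand that binds phosphatidylserine, had a lower mean in the knockout. Mfge8 had 4231, 3691, 5311 and 3089 normalized counts in wild-type libraries 1 to 4 and 1896, 3752, 2249 and 3181 in knockout libraries 1 to 4. These groups overlapped, and the log2 difference was -0.58 ± 0.24 (SE), for which limma gave an adjusted p of 0.895. The integrin chains that bind Edil3 had differences of -0.19 ± 0.16 for Itgav, 0.43 ± 0.35 for Itgb3 and -0.28 ± 0.29 for Itgb5 (SE). The integrin ligand Spp1 had 32.6 to 271 normalized counts in the wild type and 52.7, 346, 5255 and 682 in knockout libraries 1 to 4, so its difference of 2.79 ± 1.16 (SE) leans on knockout library 3. Of 17 genes tested, 11 were positive and 6 negative, with a median of 0.08.

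For Nyap2, its relatives Nyap1 and Myo16 had log2 differences of -0.37 ± 0.96 and -0.25 ± 0.24 (SE). That of Nyap1 turned to 0.32 without wild-type library 3 and to 0.33 without knockout library 2. The partners of the pathway differed little: Fyn by 0.01 ± 0.24, the PI3-kinase regulatory subunit gene Pik3r1 by -0.35 ± 0.23, the WAVE1 gene Wasf1 by 0.15 ± 0.17 and the catalytic subunit gene Pik3cb by 0.36 ± 0.23 (SE). Cntn5, a contactin gene of this list, had the largest difference of those named, -1.60 ± 0.85 (SE), with an unadjusted p above 0.05 in limma. Of 20 genes tested, 12 were positive and 8 negative, with a median of 0.01.

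For Adcyap1r1, the ligand gene Adcyap1 was absent from nearly every library, with 8.58 normalized counts in wild-type library 3 and no read in the other 7. Vipr1 and Vipr2, which encode the other receptors of PACAP, had 36.1 ± 26.8 and 16.5 ± 13.3 normalized counts in the wild type and 65.8 ± 61.4 and 18.3 ± 13.1 in knockout libraries (SD, n = 4 per genotype). Their log2 differences, 0.96 ± 1.42 and 0.15 ± 1.36 (SE), were smaller than their errors. Gnas, the gene of the stimulatory G protein, differed by 0.14 ± 0.14 (SE). Pde4b, a cAMP phosphodiesterase gene, had 3498 ± 497 normalized counts in the wild type and 2751 ± 409 in knockout libraries (SD, n = 4 per genotype), with an unadjusted p of 0.0484 and an adjusted p of 0.895 in limma. Prkacb, a catalytic subunit gene of protein kinase A, differed by 0.34 ± 0.19 (SE). Of 23 genes tested, 15 were positive and 8 negative, with a median of 0.14.

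For Adam19, the broadly expressed sheddase genes Adam10 and Adam17 had log2 differences of 0.02 ± 0.23 and 0.07 ± 0.20, and Adam9 of 0.35 ± 0.25 (SE). Adam8, a metalloprotease gene of leukocytes, had 580 ± 356 normalized counts in the wild type and 1157 ± 643 in knockout libraries (SD, n = 4 per genotype), a difference of 1.17 ± 0.57 (SE), for which limma gave an adjusted p of 0.903. The inhibitor gene Timp3 differed by 0.32 ± 0.16 (SE). The neuregulin gene Nrg1 had 51.0 ± 23.3 and 41.8 ± 19.3 normalized counts (SD, n = 4 per genotype), and the receptor genes Erbb2 and Erbb3 differed by -0.10 ± 0.28 and 0.32 ± 0.30 (SE). Of 26 genes tested, 13 were positive and 13 negative, with a median of -0.01.

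**Figure D4:**
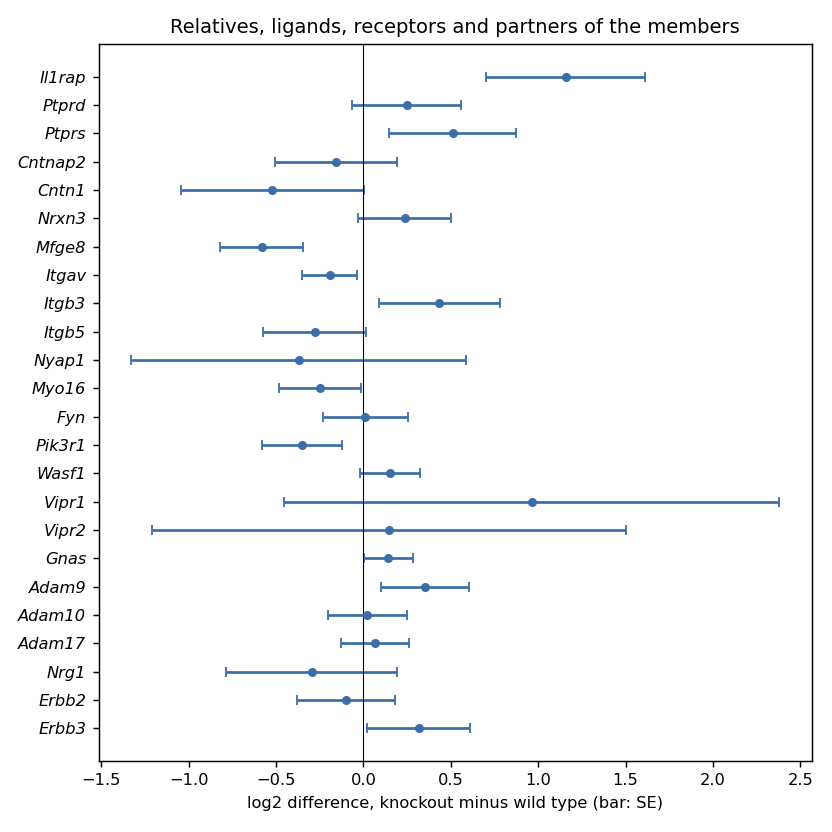
Log2 difference between knockout and wild type, with its SE as the bar, for 24 tested relatives, ligands, receptors and partners of the 6 genes. The points lie on both sides of 0, between -0.58 for Mfge8 and 1.16 for Il1rap, and Spp1 (2.79), Il1r1 (2.08) and Cntn5 (-1.60), named for their small p, are not drawn.

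The label of the set as neuronal was compared with neuronal markers. The 21 spiral ganglion neuron markers summed to 29851 to 37850 normalized counts over the wild-type libraries and 31811 to 38747 over the knockout libraries, so the summed level overlapped. Most of that sum was Nefl, Nefm and Syt1, with wild-type means of 15420, 6620 and 5526. The sum therefore says little about markers with low counts. Of the 17 tested, 12 had a positive difference, and limma gave an unadjusted p under 0.05 for 3 higher and 1 lower, against 5.57% of all genes tested. For 2 of the 21, both vesicular glutamate transporter genes, all knockout values lay above all wild-type values, against 1.39% of all genes. DESeq2 called 1 of the markers, Slc17a7, against 0.14% of all genes it tested, and limma and edgeR called 0. Slc17a7 held 15.8, 24.6, 15.6 and 11.6 normalized counts in wild-type libraries 1 to 4 and 216, 57.9, 63.2 and 48.4 in knockout libraries 1 to 4. Slc17a6 held 0, 20.1, 24.2 and 33.7 and, in the knockout, 319, 38.3, 75.8 and 75.9. Both were highest in knockout library 1, which also held the highest value of 5 of the 6 genes. The highest knockout value was in library 1 for 10 of the 21 markers, among them Tubb3, a neuronal tubulin gene, at 1867 against 544 to 1073 in the other knockout libraries. Other lists also gathered in 1 library: 12 of 15 Schwann and satellite glia markers peaked in library 3. In library 4 it was 10 of 14 mesenchyme and fibrocyte markers and 8 of 14 macrophage markers. The share of all genes that peak in library 1 is not given here, so nothing is read from these counts. Scn1a, a neuronal sodium channel gene, was at 0 in every wild-type library and had 0, 52.0, 14.4 and 37.4 normalized counts in knockout libraries 1 to 4. Nefm, a neurofilament gene, was lower in the knockout by 0.39 on the log2 scale, with an adjusted p of 0.895 in limma. The part of neuronal RNA in the values of the 6 genes was not tested.

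Most macrophage markers had higher means in the knockout. Of 14 tested, 13 had a positive difference, with a median of 1.68, and limma gave an unadjusted p under 0.05 for 5 higher and 0 lower, against 5.57% of all genes, with 0 called by limma, edgeR or DESeq2. Their summed level was 2147 to 5342 normalized counts in the wild type and 3989 to 6379 in the knockout, and no marker was at 0 in all libraries of a genotype. C1qa, a complement gene of macrophages, had 63.8 ± 67.6 and 201 ± 102 normalized counts (SD, n = 4 per genotype). Wild-type library 1 had a macrophage sum of 5342, above knockout libraries 1, 2 and 3, of which C1qb held 2234. In that library Il1rapl1 had its lowest value, 12.7, and Nyap2 and Adcyap1r1 had no read, as in every wild-type library. Cntnap4 and Adam19 had their highest wild-type values, 33.8 and 25.3, in the same library. The selection keeps every wild-type value of the 6 genes below their knockout values, so nothing is read from this library. The part of macrophage RNA in the genotype difference of the 6 genes was not tested.

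The sums of the other marker lists overlapped between the genotypes as well. Endothelial markers summed to 2695 to 4331 normalized counts in the wild type and 3063 to 4472 in the knockout. Most of that sum was Egfl7, with a mean of 3186 in the wild type and 3445 in the knockout. Of 7 endothelial markers tested, 6 were positive, with a median log2 difference of 1.13. At an unadjusted p under 0.05 in limma, the share of all genes tested was 5.57%, and 1 endothelial marker was higher. Mesenchyme and fibrocyte markers summed to 25084 to 30903 and 25920 to 49876, with 10 of 14 positive, a median of 0.64 and 3 higher at that p. DESeq2 called 1 of these markers, Coch, against 0.14% of all genes it tested. Schwann and satellite glia markers summed to 14394 to 23202 and 12761 to 25532, with 6 of 14 positive, a median of -0.06 and 1, Egr2, lower at that p. Supporting cell markers summed to 317736 to 563327 and 347936 to 506028, with 7 of 20 positive, a median of -0.10 and 4 lower at that p. For 2 of the supporting cell markers, the Notch targets Hes5 and Hey1, all wild-type values lay above all knockout values, as for 1.46% of all genes. Of the 20 hair cell markers, whose sums are given above, 11 were positive, with a median of 0.03. Limma gave an unadjusted p under 0.05 for 3 of them, all higher, and none was called by limma, edgeR or DESeq2. Melanocyte and intermediate cell markers summed to 646 to 908 and 572 to 1846, with 1 of 4 positive and a median of -0.33. Tyrp1 had 10 reads in wild-type library 2 and no read in the other 7 libraries. The part of these cell types in the values of the 6 genes was not tested.

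**Figure D5:**
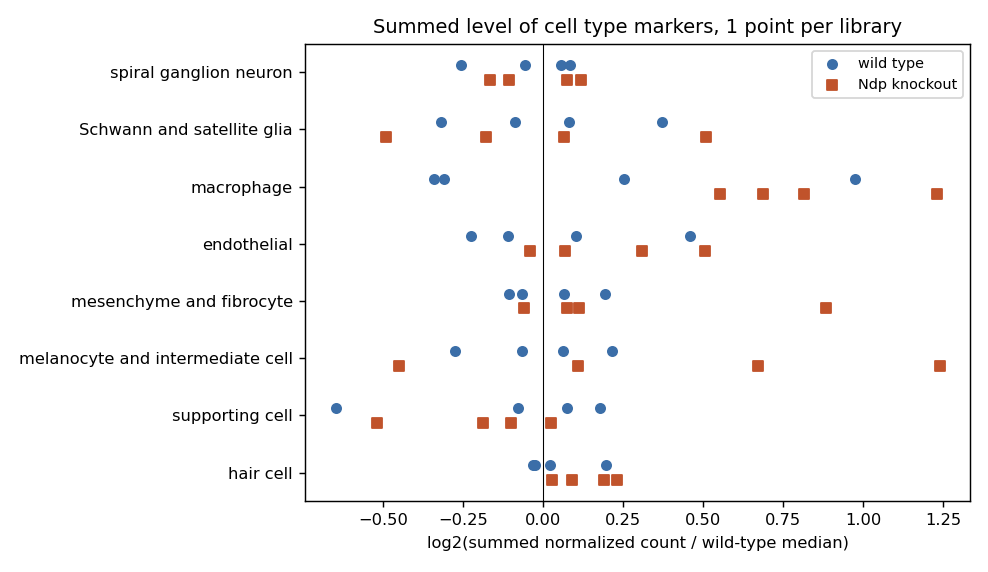
Summed normalized counts of each cell type marker list in each library, as log2 of the ratio to the median of the 4 wild-type libraries, for wild type (blue circles) and knockout (orange squares). Markers with high counts weigh most in each sum, such as Nefl for neurons and Egfl7 for endothelial cells. The neuron sums of the genotypes interleave. The macrophage sums of the knockout lie above those of wild-type libraries 2, 3 and 4 but not all above that of library 1, 5342.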

How the data were processed

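RNA of Atoh1-GFP-sorted hair cells was sequenced in 8 libraries, 4 per genotype, from SMART-Seq v4 cDNA and Nextera XT, per the labels' protocols. The authors deposited 1 table whose signal columns hold normalized counts, that is counts divided by 1 size factor per library. Tools named in the submitters' processing notes, with no role stated, are Salmon 0.14.2, bcl2fastq 2.20 and DESeq2 1.26.0, with the build mm10. Log2 fold changes and p-values of the authors stand beside the counts, per the file headers.

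Whole reads were recovered from each column's smallest step, which made 100% of 202744 values whole to within 1e-06. They may be counted reads or rounded estimates, since the sources used here do not say. Without molecular identifiers PCR copies count as reads, so the floor of 3 reads covers counting error only. Limma 3.58.1 (R 4.3.3), with an intensity trend, was fitted two-sided on log2(normalized count + 1) of all genes with at least 10 normalized counts in at least 4 libraries, 18203 in all, with Benjamini-Hochberg adjustment at 0.05. Nyap2 and Adcyap1r1 fell below that minimum, and their log2 differences are plain differences of means. On this scale adding 1 draws the change of low genes toward 0, while single libraries near 0 can enlarge it. Alternatives were edgeR 4.0.16, DESeq2 1.42.0, other pseudocounts and minimum counts, leaving out each library, leaving out the libraries with a shared title date, and those libraries alone, a value with no test.

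Coordinates were taken from the deposited table, in which 24620 of 25343 genes have the same start and end in GENCODE M21, the source of exon lengths for 25332.

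The 6 genes and all lists were chosen with earlier results of these data known. The rule for named genes took the 6 genes, key relatives and partners whatever their values (1 of them is not reported here), the 2 genes of each list with the smallest limma p, the 2 genes most alike each of the 6 genes, the nearest tested genes on either side, and Ndp. Pou4f3 and C1qa were taken from the marker lists as examples. Slc17a7, Slc17a6, Scn1a, Nefl, Nefm, Syt1, Tubb3, C1qb, Egfl7, Egr2, Coch, Hes5, Hey1, Tyrp1 and Calb1 were named after their values were seen. Il1rapl2, Il1rl1, Il18rap, Cntnap5b, Vip and Sct were not analysed here.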

Additional observations from a re-analysis of the deposited data

Results flagged for a closer look

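None of the 6 genes had a library standing apart from the others of its genotype by Dixon's test. Of the 85 groups of 4 libraries examined, those of the 6 genes included, 7 did, where chance gives about 1 in 20. All 7 were groups of named relatives or partners. Spp1 was high in wild-type library 3, at 271 normalized counts against 32.6 to 59.1, and in knockout library 3, at 5255 against 52.7 to 682. Wild-type library 2 was high for Adam17, at 3446 against 1924 to 2098.0, and for Il1r1, at 96.8 against 0 to 14.0. Adcyap1 had 8.58 in wild-type library 3 and no read in the other 3. Itgav was low in wild-type library 1, at 2076 against 2189 to 2209, and Wasf1 was high in knockout library 2, at 6612 against 5682 to 5815.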

How the results depend on the processing

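The log2 differences of the 6 genes, whose sign the selection fixes, ran from 1.56 to 8.89 over 94 combinations of gene and setting and moved by more than the spread between replicates in 9. With only the pair of the shared title date, Cntnap4 was at 1.56, Edil3 at 2.13 and Adam19 at 4.78. Their median of 3.79 was 3.24 by edgeR, over the 4 genes it tested, 2.84 with a pseudocount of 5, 4.38 without the libraries of the shared title date, and 3.26 to 4.13 when each library was left out. The count of genes called, 1 by limma, was 0 by edgeR, 35 by DESeq2 (23 higher and 12 lower), 0 with a pseudocount of 0.1, 0 without the shared title date and 0 to 2 when each library was left out. DESeq2 called all 6 genes. Limma and edgeR called 0 of the 4 they tested. No relative or partner was called in any setting.

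Of 414 combinations for the relatives and partners, 37 changed sign, over 16 of 26 genes, 10 of them with only that pair. Without the shared title date, Cntnap2 was at 0.039, Itgb5 at 0.0081 and Nyap1 at 0.15. By edgeR Fyn was at -0.0051 and Adam10 at -0.055, and by DESeq2 Adam10 was at -0.049. When each library was left out, Cntnap2 ran from -0.48 to 0.036, Itgb5 from -0.50 to 0.014, Nyap1 from -1.10 to 0.33, Fyn from -0.15 to 0.15, Vipr1 from -0.43 to 1.94, Vipr2 from -0.96 to 1.31, Adam10 from -0.16 to 0.22, Adam17 from -0.023 to 0.26 and Erbb2 from -0.31 to 0.10. The cause was not tested. No paired analysis was possible because the replicate numbers follow accession order and only 1 title date occurs in both genotypes. Depth limits Edil3, Nyap2 and Adcyap1r1 most, with 0 to 9 reads per wild-type library.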
